A study of Mus musculus with 30 samples.

Results

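The members described here are the 10 immediate early genes Fos, Fosb, Jun, Junb, Jund, Egr1, Ier2, Ier3, Dusp1 and Atf3. They were taken by symbol from the authors' count table of 17562 genes, by a list of names that applies no threshold to a measured value. All 10 were present, and all 10 passed the filter on low counts that left 16068 genes to be tested. Immediate early genes are transcribed within minutes of a signal such as a growth factor, a cytokine or a stress, from factors that are already in the cell, and their transcripts decay quickly. Fos and Jun family proteins pair through leucine zippers to form AP-1, a dimer that binds DNA and changes the transcription of later genes, while Egr1 is a zinc finger factor induced by the same mitogen-activated protein kinase pathways. In blood stem cells Egr1 and AP-1 are known for links to quiescence and to leaving it.

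The samples were haematopoietic stem cells, the rare marrow cells that renew the blood, sorted from male mice of strain B6 or of its congenic partner BoyJ. Young mice were 8 to 12 weeks old at the procedure, and old mice were 22 months old in B6 and 21 months in BoyJ. Controls were left unjoined, and the other mice shared a circulation with a partner through surgery (parabiosis), either of the same age (isochronic) or of the other age (heterochronic). The labels name 30 samples in 11 groups, followed here as 7 conditions over 29 libraries. Young unjoined controls (YCNT) had 7 libraries, 3 of B6 (YB6CNT) and 4 of BoyJ (YBJCNT). Young isochronic mice (YISO) had 4, and young heterochronic BoyJ mice (YHET) had 2. Old unjoined controls (OCNT) had 4, of which 3 were B6 (OB6CNT) and 1 was BoyJ (OBJCNT). Old isochronic mice (OISO) had 6, 5 of B6 (OISOB6) and 1 of BoyJ. Old heterochronic B6 mice (OHET) had 4, and old B6 cells that had lodged in the marrow of the young partner (OHETX, group OHETB6X) had 2. Which joined mice were partners of each other is not given in the labels.

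The labels conflict for some of these libraries. Columns of the count table were matched to samples by the code in the sample title. The sample description names the same column for 19 libraries and another sample's column for 10, among them both OHETX libraries. All 4 OCNT libraries are among the 19, with 4 of YCNT, 3 of YISO, 2 of YHET, 4 of OISO and 2 of OHET. Results are therefore given also for the 19 libraries on which both labels meet. Libraries held 7.66 M to 30.9 M counts, and the shallowest was OHETB6X replicate 1. Levels are given as CPM, that is, counts scaled to the size of the library with TMM factors. Stem cell markers summed to between 2318 and 3961 CPM over the 29 libraries, with none of the 10 at 0 in any library. Markers of other cell types were mixed. Pax5 of B cells was at 0 in 25 libraries and Ctsg of granulocytes in 15. Cd79b of B cells (7.06 to 30.4 CPM) and S100a9 of granulocytes (0.0499 to 885 CPM) had counts in every library. So did Lyz2 of monocytes and macrophages, at 124 to 315 CPM. In OHETB6X replicate 1 the 8 granulocyte markers summed to 2533 CPM, against 3.32 to 7.90 CPM in OB6CNT and 2.04 to 748 CPM in the other 25 libraries. In bulk RNA such as this, more cells that express a gene and more RNA per cell cannot be told apart.

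The members are compact genes. By RefSeq annotation of GRCm38.p6, 9 of the 10 span less than 10000 bases, against 27.5% of the tested genes that could be matched, and Atf3 spans 13038. Jun, Junb, Jund and Ier2 have a single exon in their longest GENCODE transcript, as do 4.16% of tested genes, whose median is 8 exons. Fos (ENSMUSG00000021250) lies at chr12:85473890-85477274 on the plus strand, and Fosb (ENSMUSG00000003545) lies at chr7:19302696-19310118 on the minus strand. Jun (ENSMUSG00000052684) lies at chr4:95049036-95052222 on the minus strand, Junb (ENSMUSG00000052837) lies at chr8:84976909-84978748 on the minus strand, and Jund (ENSMUSG00000071076) lies at chr8:70697739-70700616 on the plus strand. Ier2 (ENSMUSG00000053560) lies at chr8:84661331-84662852 on the minus strand, Ier3 (ENSMUSG00000003541) lies at chr17:35821713-35822911 on the plus strand, Dusp1 (ENSMUSG00000024190) lies at chr17:26505591-26508472 on the minus strand, and Atf3 (ENSMUSG00000026628) lies at chr1:191170296-191183333 on the minus strand. The identifier of Egr1 in the table is ENSMUSG00000038418. Promoters are shown for 3 members that differ in their sequence features: Fos and Junb for the AP-1 subunits, and Dusp1 for the phosphatase that switches the kinases off. Each run is the 250 bases before the RefSeq start, read in the direction of the gene. The Fos run lies at chr12:85473640-85473889 on the plus strand, the Junb run at chr8:84978749-84978998 on the minus strand, and the Dusp1 run at chr17:26508473-26508722 on the minus strand. Capitals mark TATAAA and TGACG on either strand, the latter being the core of the cyclic AMP response element TGACGTCA.
Fos: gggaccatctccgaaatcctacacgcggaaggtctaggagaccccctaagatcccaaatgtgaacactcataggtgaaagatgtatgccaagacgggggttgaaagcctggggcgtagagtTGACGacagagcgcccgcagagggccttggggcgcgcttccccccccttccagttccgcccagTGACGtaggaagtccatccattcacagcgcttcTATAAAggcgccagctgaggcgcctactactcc
Junb: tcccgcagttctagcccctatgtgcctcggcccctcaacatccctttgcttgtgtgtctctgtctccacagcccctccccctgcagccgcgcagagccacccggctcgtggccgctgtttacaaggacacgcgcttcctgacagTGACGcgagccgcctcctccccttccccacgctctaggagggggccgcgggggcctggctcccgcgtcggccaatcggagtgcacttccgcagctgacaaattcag
Dusp1: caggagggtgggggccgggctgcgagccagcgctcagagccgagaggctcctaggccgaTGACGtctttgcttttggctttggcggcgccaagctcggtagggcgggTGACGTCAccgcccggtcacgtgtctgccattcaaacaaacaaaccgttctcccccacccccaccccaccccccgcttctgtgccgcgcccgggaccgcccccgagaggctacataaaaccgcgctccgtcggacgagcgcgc
The search covered both strands of a 300 base window, 250 before and 50 after the start, in the 8 members used from the RefSeq table and in all 32851 windows. Egr1 and Ier2 were not among the 8, and bases outside the window were not searched. TGACG was found in 5 of the 8, Fos, Fosb, Junb, Dusp1 and Atf3, against 20.8% of all windows. The whole element TGACGTCA, which contains it, was found in Dusp1, 143 bases before the start, and in 1.79% of all windows. Fos held TGACG at 129 and 66 bases before its start and TATAAA at 33 bases before it. TATAAA was found in Fos and Junb and in 13.6% of all windows, with the Junb match starting at the first base of the gene, outside the run shown. GCGNGGGCG, the letters Egr1 is known to prefer, was found in Fosb and in 5.55% of all windows. Neither the AP-1 letters TGANTCA (7.81% of all windows) nor the CArG box of serum response factor (1.63%) was found in any of the 8. These matches describe letters in a window and show no binding.

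Summed over the 10 members, the 3 old unjoined B6 libraries and OHETB6X replicate 1 were the highest. The members summed to 3060, 3394 and 3550 CPM in OB6CNT and to 3348 CPM in OHETB6X replicate 1, and the other 25 libraries held 231 to 1301 CPM. In the first OB6CNT library the members took 0.322% of all counts (95% Wilson interval 0.320% to 0.324%, counting error only). Every OB6CNT library lay above each of the other 26 for 5 members, Fos, Jun, Jund, Ier2 and Dusp1, as it did for 0.168% of tested genes. Without OHETB6X replicate 1 this held for 8 members, with Fosb, Junb and Egr1 added, and for 0.243% of tested genes. These rules of no overlap were chosen after the values had been seen. The plot of levels shows each library for each gene.

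**Figure D1:**
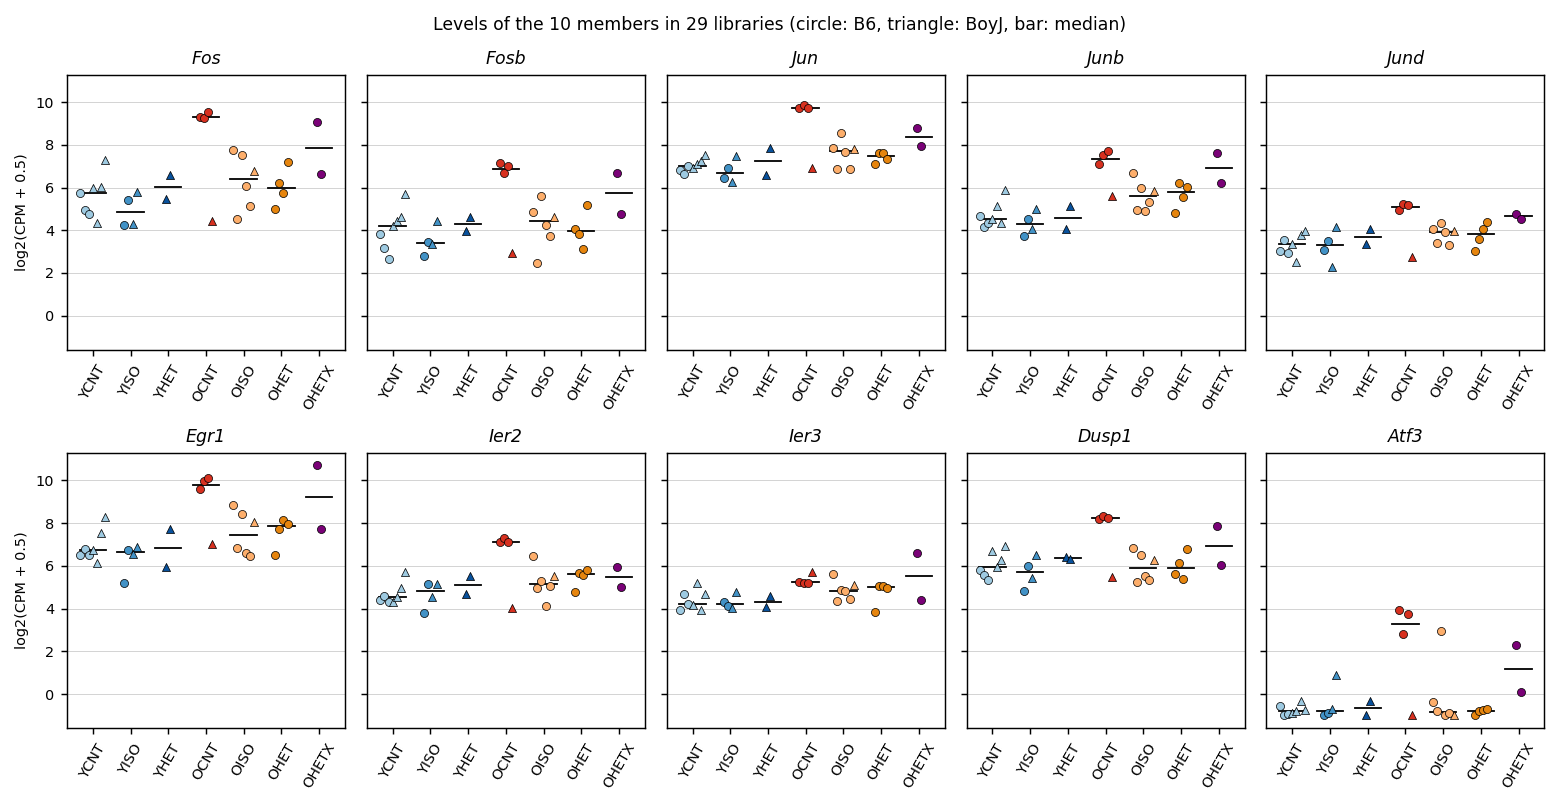
Levels of the 10 members, as log2(CPM + 0.5), in 29 libraries by condition, with circles for B6, triangles for BoyJ and a bar at the median of each condition. The 3 old unjoined B6 libraries stand above the other libraries for most members, the old unjoined BoyJ library lies with the young ones except for Ier3, and OHETB6X replicate 1 is the other high library.

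Fos, the inducible partner of Jun, was at 635, 618.5 and 736 CPM in OB6CNT. In YB6CNT it was at 52.4, 30.2 and 26.5 CPM, and in the 4 YBJCNT libraries between 20.0 and 154 CPM. The OBJCNT library held 21.3 CPM, so old controls of both strains together overlapped with young ones for Fos. Fos was 18.2-fold higher in OB6CNT than in YB6CNT (log2 fold change 4.19, SE 0.93; edgeR adjusted p = 0.0367). Over both strains the difference of OCNT from YCNT was 3.22 on the log2 scale (SE 0.90) and did not pass the test (edgeR adjusted p = 0.066). Fosb, a family member with a longer-lived protein form, was at 143, 101 and 130 CPM in OB6CNT and at 13.8, 8.52 and 5.82 CPM in YB6CNT. It rose 13.3-fold with age in B6 (log2 3.73, SE 0.67; edgeR adjusted p = 0.00413). Over both strains Fosb also rose, by 2.70 on the log2 scale (SE 0.71; edgeR adjusted p = 0.0419).

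Jun, the DNA-binding partner of Fos, was at 855, 932 and 845 CPM in OB6CNT and at 112, 98.3 and 127 CPM in YB6CNT, a rise of 7.78-fold (log2 2.96, SE 0.38; edgeR adjusted p = 6.51e-05). The highest library outside OB6CNT held 433 CPM, so OB6CNT did not overlap with any other library for Jun. Junb, a Jun relative known to restrain proliferation of blood stem and progenitor cells, was at 139, 185 and 206 CPM in OB6CNT against 24.9, 17.2 and 20.1 CPM in YB6CNT and rose 8.50-fold (log2 3.09, SE 0.50; edgeR adjusted p = 0.00176). Its OBJCNT value of 48.8 CPM lay within the range of the young controls, whose highest library held 58.4 CPM. Jund, the Jun member that is usually expressed in resting cells, was at 30.8, 37.04 and 35.7 CPM in OB6CNT against 7.69, 11.2 and 7.20 CPM in YB6CNT. It rose 3.95-fold (log2 1.98, SE 0.46; edgeR adjusted p = 0.0317). Per kilobase of exon, the median level of Jun over the 26 libraries outside OB6CNT was 45.4 CPM per kilobase against 18.1 for Junb and 6.79 for Jund.

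Atf3, a stress-induced factor that can pair with Jun and often represses, was nearly absent outside a few libraries. It had 0 to 6 counts in each YCNT library and 371, 81 and 294 counts in OB6CNT, which is 15.0, 6.55 and 13.0 CPM. The OBJCNT library had a count of 0, which allows up to 3 counts. The 3 OB6CNT libraries did not overlap with YB6CNT, but the edgeR adjusted p was 0.0811 in B6 and 0.119 over both strains. Its fitted fold change rests on these few young counts and is not given. Outside OB6CNT the highest levels were 7.14 CPM in OISOB6 replicate 3, 4.38 CPM in OHETB6X replicate 1 and 1.33 CPM in YISOBJ replicate 2.

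Egr1, the zinc finger factor, was at 773, 1004 and 1106 CPM in OB6CNT and at 89.1, 109 and 91.6 CPM in YB6CNT. The groups did not overlap, yet the difference, 3.31 on the log2 scale (SE 0.82), missed the threshold (edgeR adjusted p = 0.0654). The highest value of all belonged to OHETB6X replicate 1, at 1664 CPM. Outside OB6CNT and that library, Egr1 varied 12.7-fold between the lowest and the highest of 25.

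Ier2, a small early response protein, was at 139, 155.5 and 139 CPM in OB6CNT against 20.6, 23.3 and 19.6 CPM in YB6CNT, and rose 6.81-fold (log2 2.77, SE 0.47; edgeR adjusted p = 0.00229). Dusp1, the phosphatase that removes the activating phosphates from mitogen-activated and stress-activated kinases, was at 293, 317.5 and 303 CPM against 56.0, 47.1 and 39.4 CPM, and rose 6.39-fold (log2 2.68, SE 0.46; edgeR adjusted p = 0.00298). The OB6CNT libraries lay close together, with a coefficient of variation of 6.55% for Ier2 and 4.08% for Dusp1. Ier3, a survival factor induced by NF-kappaB and p53, was at 37.8, 36.5 and 36.02 CPM in OB6CNT and at 14.8, 25.0 and 18.3 CPM in YB6CNT, a difference of 0.92 on the log2 scale (SE 0.43) that did not pass (edgeR adjusted p = 0.59). Ier3 was the member for which the OBJCNT library, at 51.2 CPM, was above the OB6CNT libraries.

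In the comparison of age among unjoined B6 mice, 7 of the 10 members rose and 0 fell, where 0.576% of 16841 genes rose. All 10 had positive values, with a median log2 fold change of 3.02 against -0.01 over all genes. The libraries of OB6CNT and YB6CNT did not overlap for any of the 10, as for 10.5% of tested genes with OB6CNT above. With the 19 libraries 6 of the 10 rose, where 60 of 16497 genes did, and Fos missed the threshold at an edgeR adjusted p of 0.0599. Fos and Jund lost their calls when any 1 of the 6 libraries was left out, Fosb lost it without YB6CNT replicate 3 (edgeR adjusted p = 0.0527), and Jun, Junb, Ier2 and Dusp1 passed each time. The endothelial markers summed to 66.8 to 129 CPM in YB6CNT and 128 to 177.2 CPM in OB6CNT, which overlap. Of these markers 2 of 5 rose in edgeR, where 0.576% of genes did. The granulocyte markers summed to 14.9 to 206 CPM in YB6CNT and 3.32 to 7.90 CPM in OB6CNT. All 8 of them had negative values, with 0 called and 0 at an unadjusted p under 0.05. The part of both lists in the member levels was not tested. Over both strains, OCNT minus YCNT, 5 of 10 members rose, Fosb, Jun, Junb, Ier2 and Dusp1, against 1.59% of 16068 genes. The libraries were without overlap for 1 member, Ier3, and for 2.63% of tested genes. All 10 had an unadjusted p under 0.05, against 11.7% of all genes. With the 19 libraries 2 members passed, Ier3 and Junb, where 179 of 15675 genes rose. The median of the members was then 2.28 against 2.41 with all 29. DESeq2 called 9 of the 10, where it called 348 of 15662 genes higher, and limma-voom called 10, where it called 688 of 16068 higher. Leaving out 1 library gave 2 to 9 calls in edgeR, with Jun and Junb passing each time.

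**Figure D2:**
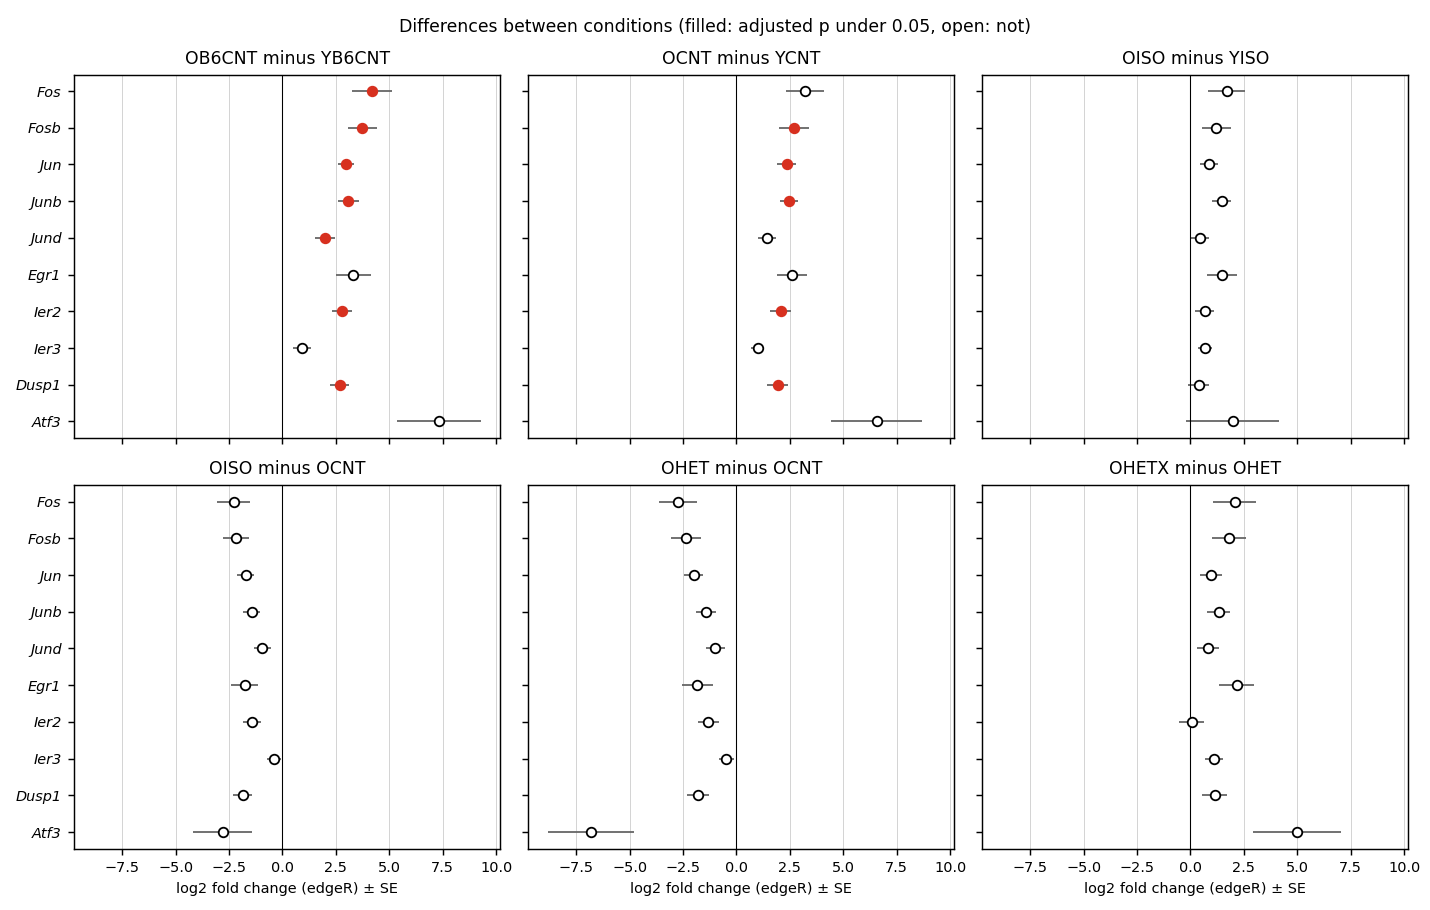
Log2 fold change (edgeR) ± SE of the 10 members in 6 comparisons, with filled points at an adjusted p under 0.05. Both comparisons of age in unjoined mice have filled points to the right, 7 and 5, and the other 4 have open points, to the left where OCNT is subtracted; the Atf3 values rest on few counts.

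The calls over both strains rested on the B6 libraries. Without the 3 OB6CNT libraries, OCNT was the 1 BoyJ library, and 0 of the 10 members were called against YCNT. The fitted differences were then -1.80 for Fosb, -0.25 for Jun and 0.62 for Junb on the log2 scale, none past the threshold in edgeR. The OBJCNT library lay within the range of the 4 YBJCNT libraries for Fos, Jun, Junb, Jund and Egr1, below all of them for Fosb, Ier2 and Dusp1, and above all of them for Ier3. The difference between strains in the age effect was tested with this single library, which was assumed to vary like the other groups. It passed for 0 of 10 members in edgeR (0.0297% of 16841 genes), while 9 had an unadjusted p under 0.05, DESeq2 called 5 and limma-voom 4. Strain and individual cannot be told apart with 1 old BoyJ library. Labels conflict for 2 of the 4 YBJCNT libraries.

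The members were lower in old mice joined to old partners than in old unjoined mice, short of the threshold over both strains. In OISO, Fos ranged from 22.2 CPM through a median of 87.3 to 215 CPM, and Jun from 115 through 212 to 375 CPM. Every OISO library was below every OB6CNT library for both genes. All 10 members were lower in OISO than in OCNT, by a median of 1.74 on the log2 scale, but edgeR called 0 of them (0% of 16068 genes). Of the 10, 8 had an unadjusted p under 0.05, against 4.21% of all genes. DESeq2 called 2, where it called 10 of 15959 genes lower, and limma-voom 9, where it called 58 of 16068 lower. Without the 3 OB6CNT libraries, where OCNT is the 1 BoyJ library, the direction turned: the median was 1.36, with Fosb at 2.61 and Jun at 1.03, 9 of 10 members were positive and edgeR called 0. Within B6, Jun (log2 2.08, SE 0.31; edgeR adjusted p = 0.00304) and Dusp1 (2.22, SE 0.38; edgeR adjusted p = 0.0115) were higher in OB6CNT than in OISOB6, where 0.0534% of genes were. The libraries of these groups did not overlap for 8 members, as for 2.98% of tested genes. With the 19 libraries Dusp1 and Ier2 passed, each at an edgeR adjusted p of 0.032, where 5 of 16497 genes were called higher. Jun did not pass there (edgeR adjusted p = 0.0676). Dusp1 lost its call without OISOB6 replicate 4, OB6CNT replicate 1 or OB6CNT replicate 3, with edgeR adjusted p from 0.0543 to 0.108. Granulocyte markers summed to 19.9 to 748 CPM in OISO and 39.5 CPM in OBJCNT, and their part in the difference was not tested. OISO minus OCNT, OCNT minus YCNT and OHET minus OCNT share the old control libraries, so their values are not independent of each other.

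Between old and young isochronic mice no member passed the test. In YISO, Fos was at 18.2, 42.8, 19.0 and 55.4 CPM and Jun at 87.8, 119, 75.8 and 175 CPM, which overlapped with OISO for both genes. Junb had the smallest adjusted p, at 20.6 ± 8.18 CPM (SD, n = 4) in YISO and 53.7 ± 27.5 CPM (SD, n = 6) in OISO, a difference of 1.46 on the log2 scale (SE 0.45) that did not pass (edgeR adjusted p = 0.101). All 10 values were positive, with a median of 1.03, but edgeR called 0 (1.45% of genes in either direction). Of the 10, 2 had an unadjusted p under 0.05, against 13.1% of all genes. DESeq2 called 1, where it called 438 of 15959 genes higher, and limma-voom 0. No member had OISO above YISO without overlap, as 2.57% of tested genes did. With the 19 libraries 0 passed, where 107 of 15675 genes rose and 9 fell, and the median of the members was 0.98. Whether the age difference itself changed with joining was tested directly. All 10 members had a larger value in unjoined mice, and 0 passed (0% of genes). Of the 10, 4 had an unadjusted p under 0.05, against 5.18% of all genes. Among them was Jun with a difference of 1.49 (SE 0.55, edgeR adjusted p = 0.899). DESeq2 and limma-voom called 0 and 0. Without the 3 OB6CNT libraries 9 of 10 values were negative, with a median of -1.56, Fosb at -3.20 and Jun at -1.23, and edgeR called 0.

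Young mice showed no called change. In YISO minus YCNT 8 of 10 log2 values were negative, from -0.76 for Fos (SE 0.79) to -0.02 for Ier2 (SE 0.43), and edgeR called 0 (0% of genes), with 0 at an unadjusted p under 0.05 and 0 in DESeq2 and limma-voom. In YHET, Egr1 was at 61.2 and 211 CPM and Fos at 43.1 and 95.3 CPM, with both Fos values within the range of YCNT and the lower Egr1 value below its lowest library, at 68.8 CPM. YHET minus YISO had 0 called (0% of genes), 0 at an unadjusted p under 0.05, and 0 in DESeq2 and limma-voom.

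Between old mice with a young partner and old mice with an old partner no member passed the test. In OHET, Fos was at 31.4, 74.8, 52.8 and 144 CPM, Jun at 138, 197.5, 198 and 161 CPM, and Egr1 at 90.1, 214, 283 and 249 CPM. These ranges lay inside those of OISO for all 3 genes. OHET minus OISO ranged from -0.44 (SE 0.79) for Fos to 0.11 (SE 0.44) for Ier2 among the 9 members other than Atf3. edgeR called 0 of 10 (0% of genes), with Atf3 at an unadjusted p under 0.05 (8.51% of all genes) and 0 in DESeq2 and limma-voom. With the 19 libraries the median of the members in OHET minus OISO was 0.29, against -0.08 with all 29. Against OCNT all 10 were lower in OHET, Jun by 1.99 on the log2 scale (SE 0.45; edgeR adjusted p = 0.1155) and Dusp1 by 1.82 (SE 0.51; edgeR adjusted p = 0.203). edgeR called 0 of 10 there (0.0249% of genes), and 9 had an unadjusted p under 0.05, against 9.77% of all genes. DESeq2 called 2, where it called 39 of 15959 genes lower, and limma-voom 0. Without the 3 OB6CNT libraries the direction turned here too, with a median of 1.34, Jun at 0.80 and Dusp1 at 1.26, and edgeR called 0. In the authors' deposited table of OCNT against OHET, Jun, Dusp1 and Atf3 had an adjusted p under 0.05, at 0.000823, 0.0245 and 0.0208. In the authors' deposited table of OCNT against OISO, Jun and Dusp1 did, at 0.00789 and 0.0250. In the authors' other 9 deposited tables used here, 0 members did.

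The old cells from the young partner's marrow differed between their libraries. OHETB6X replicate 1 had 537 CPM of Fos, 433 of Jun, 193 of Junb, 1664 of Egr1 and 96.3 of Ier3, and replicate 2 had 99.9, 244.5, 74.2, 207 and 20.9 CPM of the same genes. Replicate 1 was above all 25 libraries outside OB6CNT for 8 members, but also for 7.75% of all tested genes, so many other genes stood out in it. It was the shallowest library and had the highest sum of granulocyte (2533 CPM), B cell (52.9 CPM) and erythroid markers (44.04 CPM) of the 29, and their part in the member levels was not tested. The other 2 members were Atf3 and Ier2, the latter at 61.4 CPM against 86.2 CPM in OISOB6 replicate 1. The description naming the column of replicate 1 belongs to a YHETBJ sample, and that of replicate 2 to an OISOB6 sample. Of the labels, only the title places both in OHETB6X. Log ratios of OHET to OHETX correlated with the authors' deposited values at r = 0.813 when matched by title. Matched by description, r was 0.237. OHETX minus OHET was positive for all 10 members, with Egr1 at 2.16 on the log2 scale (SE 0.83; edgeR adjusted p = 0.252), and edgeR called 0 of 10 (0.218% of genes). Of these 10, 5 had an unadjusted p under 0.05, against 13.6% of all genes, and DESeq2 and limma-voom called 0. With columns matched by description the direction turned: all 10 members were negative, with a median of -0.72 and Egr1 at -0.71 (SE 1.32), and edgeR called 0. OHETX was above OHET without overlap for Jun, Jund and Atf3, as for 5.99% of tested genes. The 19 libraries hold none of OHETX.

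The members varied together in the libraries outside OB6CNT. Over the 26 libraries outside OB6CNT, Pearson's r between log2(CPM + 0.5) of pairs of members other than Atf3 had a median of 0.73 over 36 pairs, from 0.42 for Jund with Ier3 to 0.88 for Fos with Egr1. Without OHETB6X replicate 1 the median was 0.63. These values are a description over libraries that also differ in condition and strain. Ier3 was the least like the others, with a median r of 0.51 to them. The heat map of relative levels shows whole columns that are high or low together, such as YBJCNT replicate 4 among the young controls and OISOB6 replicates 1 and 3 among the old isochronic ones.

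**Figure D3:**
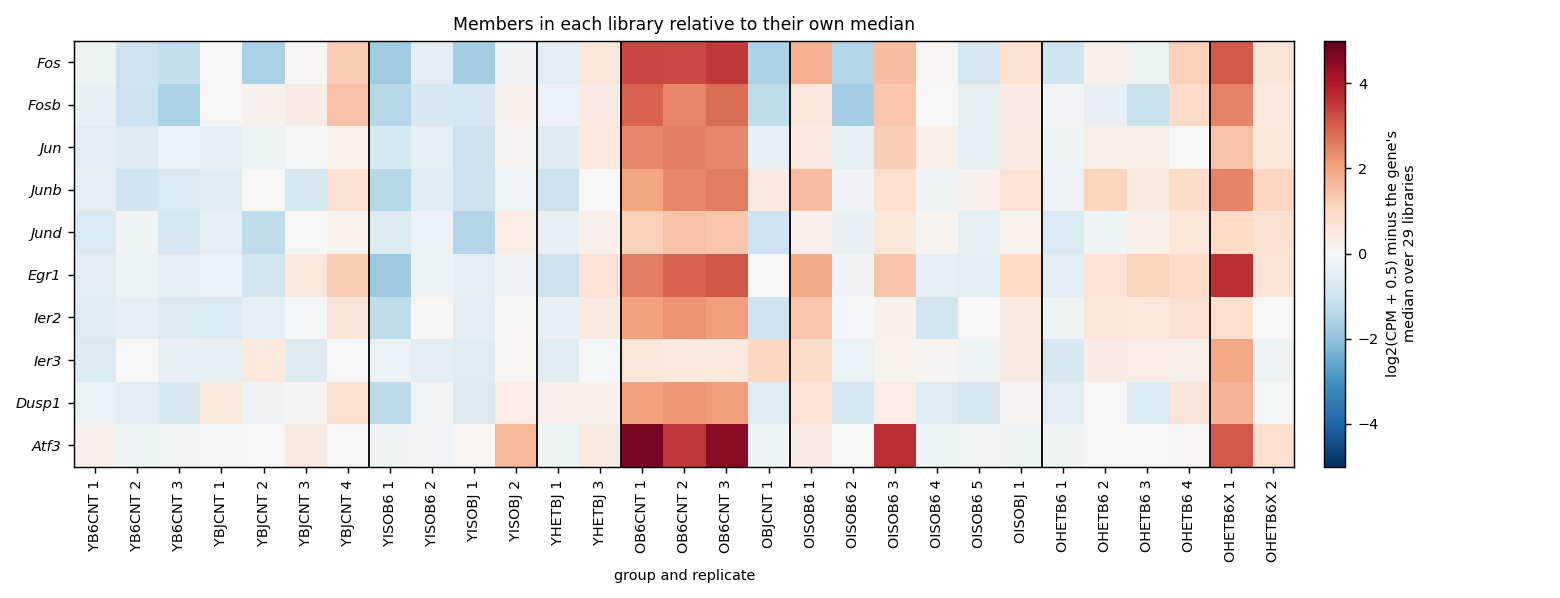
Level of each member in each library relative to its own median over 29 libraries, as a difference of log2(CPM + 0.5), with lines between conditions. Columns are red or blue for most members at once, with OB6CNT and OHETB6X replicate 1 the reddest, and Ier3 is the palest row in OB6CNT.

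Some ratios between members set the OB6CNT libraries apart from YB6CNT as well, and others did not, without a test. The ratio of Fos to Jun counts was 0.66 to 0.87 in OB6CNT against 0.21 to 0.47 in YB6CNT, and 0.18 in OBJCNT. Over the 26 libraries outside OB6CNT this ratio ran from 0.15 to 1.24, on both sides of the OB6CNT values. Dusp1 to Fos was 0.41 to 0.51 in OB6CNT and 1.07 to 1.56 in YB6CNT, without overlap, though the lowest of the other 26 libraries was at 0.43. Jund to Jun was 0.036 to 0.042 in OB6CNT and at least 0.038 in the other 26 libraries. Ier3 to Ier2 was 0.24 to 0.27 in OB6CNT, 0.72 to 1.07 in YB6CNT and 3.24 in OBJCNT. Egr1 to Fos was 1.22 to 1.62 in OB6CNT and 1.7 to 3.6 in YB6CNT. The remaining ratios overlapped between OB6CNT and YB6CNT. Egr1 to Jun was 0.904 to 1.31 against 0.72 to 1.11, and Junb to Jun was 0.162 to 0.244 against 0.158 to 0.222. Fosb to Fos was 0.164 to 0.225 against 0.22 to 0.282. These ratios are not corrected for length and compare libraries only.

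The OB6CNT libraries also stood next to each other in number. The titles number them 28, 29 and 30. The library numbered 31, YBJCNT replicate 4, was the highest young control, with the members summing to 975 CPM against 356 to 581 CPM in the other 6. Library 32, of OHETB6, summed to 870 CPM and was the highest of OHET, while libraries 33 and 34, of YISOB6 and OISOB6, summed to 427 and 394 CPM. Libraries 24, 25 and 26, before them, summed to 356, 581 and 726 CPM. What the number stands for is not given in the sources used here, and its part in the result was not tested.

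**Figure D4:**
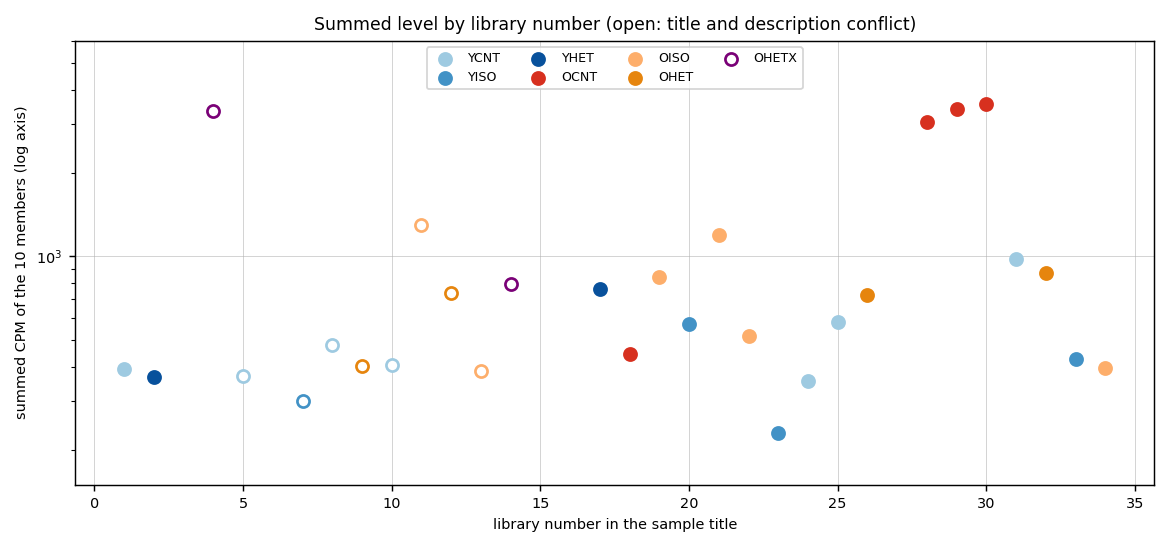
Summed CPM of the 10 members (log axis) by the library number in the sample title, coloured by condition, with open symbols where title and description conflict. Libraries 28, 29 and 30 and library 4 lie between 3060 and 3550 CPM, and the other libraries lie between 231 and 1301 CPM.

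Other genes of the same pathways were read from fixed lists. Of 37 further immediate early genes 34 were tested. In OCNT minus YCNT 11 rose and 0 fell, where 1.59% of 16068 genes rose. Positive values were found for 32 of the 34 genes, against 47.4% of all genes, with a median of 1.05 on the log2 scale. Among them Klf6, a zinc finger factor, was at 398 ± 70.8 CPM (SD, n = 3) in OB6CNT and 101 ± 18.9 CPM (SD, n = 3) in YB6CNT, and rose over both strains by 1.70 (SE 0.26; edgeR adjusted p = 0.000199). Socs3, an inhibitor of cytokine signalling, was at 28.5 ± 2.76 CPM against 1.81 ± 0.316 CPM in the same groups (OCNT minus YCNT 3.19, SE 0.66; edgeR adjusted p = 0.00597). Sgk1 and Plk2, both kinases, rose by 2.46 and 1.91 (edgeR adjusted p = 0.00491 and 0.00479), and Plk2 was at 105 CPM in OBJCNT, above all YCNT libraries. In OISO minus YISO 2 of the 34 rose, where 1.45% of genes were called in either direction. In OISO minus OCNT 32 of the 34 were negative, where 51.4% of all genes were positive, and edgeR called 0 (0% of genes). Of the 34, 14 had an unadjusted p under 0.05 there, against 4.21% of all genes, and DESeq2 called 3 and limma-voom 13.

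Of the other AP-1 subunits and partners 13 were tested, among them Atf2 and Atf7, and edgeR called 0 in OCNT minus YCNT, with 11 positive and a median of 0.59, 6 at an unadjusted p under 0.05, 1 called by DESeq2 and 4 by limma-voom. Atf2 was at 296 ± 10.3 CPM in OB6CNT and 250 ± 34.5 CPM in YB6CNT (SD, n = 3 each). The other EGR factors and their NAB corepressors had 5 of 5 positive values, with a median of 2.17 on the log2 scale. edgeR, DESeq2 and limma-voom called 0 of these 5, and 1 had an unadjusted p under 0.05. Nab1 was at 0.21 (SE 0.10, edgeR adjusted p = 0.398). Of the kinase cascade that drives the members, 17 genes were tested, and edgeR called 0, with a median of -0.00062 on the log2 scale, 1 at an unadjusted p under 0.05, 0 called by DESeq2 and 1 by limma-voom. Rps6ka3, a ribosomal S6 kinase of this cascade, differed by 0.30 on the log2 scale (SE 0.13; edgeR adjusted p = 0.346). Of 6 tested SRF, TCF and CREB factors, which act on promoters of early genes, edgeR, DESeq2 and limma-voom called 0, with 0 at an unadjusted p under 0.05 and a median of -0.23. Of 14 other DUSP and Sprouty feedback inhibitors 1 rose, where 1.59% of all genes did. It was Spred1, by 0.37 (SE 0.09, edgeR adjusted p = 0.0311).

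The genes whose pattern was most like that of the members were found by the correlation of log2(CPM + 0.5) with the members' mean over the 26 libraries outside OB6CNT, so that the old unjoined B6 libraries did not choose them. The 10 highest of 11671 candidates were Zfp36 (r = 0.89), Ppp1r15a (0.86), Ccnl1 (0.86), Zfp36l1 (0.76), Atf4 (0.75), Btg2 (0.74), Fzd8 (0.74), Hes1 (0.73), Btg1 (0.72) and Mcl1 (0.72). Without OHETB6X replicate 1 these values lay between 0.56 and 0.83. In the libraries left out of the choice, Zfp36, which encodes a protein that speeds the decay of short-lived transcripts, was at 370 to 440 CPM in OB6CNT against a median of 58.9 CPM in the others. Btg2, an antiproliferative gene, was at 70.2 to 120 CPM against 12.1 CPM, and Ccnl1, a cyclin linked to splicing, at 363 to 372 CPM against 199 CPM. Fzd8, a Wnt receptor, at 9.39 to 19.3 CPM against 8.93 CPM, and Zfp36l1, a relative of Zfp36, at 33.9 to 46.2 CPM against 27.6 CPM, were closer to the other libraries.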

How the data were processed

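Hematopoietic stem cells were sorted from bone marrow and their total RNA was made into low-input libraries, per the labels' protocols. The authors deposited estimated counts per gene, not scaled to library size, with build GRCm38 and the tools Salmon, FastQC, MultiQC and DESeq2 listed in the submitters' processing notes; versions and settings are not given in the sources used here. The authors also deposited 11 comparison tables with log2 fold changes and p-values, for which the notes name DESeq2. The counts were read as whole numbers.

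Columns were matched to samples by the code in the title, a rule fixed beforehand. As a check, log ratios of conditions so matched were compared with the authors' deposited log2 values over 9031 genes. They correlated at r = 0.77 to 0.85 in all 11 tables, against -0.15 to 0.73 when matched by description. Of 30 columns 29 were used and 1 was not. Libraries held 7.66 M to 30.9 M counts, so the floor of 3 counts and the 95% Wilson intervals cover counting error only. The 2 closest replicates had a chi-square divided by its degrees of freedom of 22.8, and none was treated as a duplicate. GEO lists each library as its own sample, so a p-value reflects the spread among such samples, which may be technical; partners of joined mice are not given and were not modelled.

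edgeR 4.0.16 in R 4.3.3 (TMM factors, filterByExpr, robust quasi-likelihood F test) was fitted once to 7 conditions with strain as a covariate (16068 genes, 21 residual degrees of freedom) and once to the 11 labelled groups (16841 genes, 18 residual degrees of freedom). A call is an adjusted p under 0.05, by Benjamini and Hochberg's method over all genes tested. Alternatives were DESeq2 1.42.0, limma 3.58.1 (voom with quality weights), RLE factors, no filter, no strain term, other sets of libraries and other matchings of columns. On simulated counts for OCNT minus YCNT (16068 genes) the test made 131 calls, of which 2 were false; it found 83 of the 100 genes given a 4-fold change and 46 of the 100 given a 2-fold change. Tables and motif searches used Python 3.11.15.

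All 10 members are named. From each other list the named genes are up to 4 called genes with the smallest adjusted p in OCNT minus YCNT and in OISO minus OCNT, or the 2 with the highest mean level where none was called, and the 10 genes of most like pattern are named by correlation. Not every gene named by this rule is reported here. The members and lists were chosen with earlier results of these data known.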

Additional observations from a re-analysis of the deposited data

Results flagged for a closer look

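Of 50 tests for a single library far from the rest of its condition, 12 stood out. Chance alone gives about 5% of such tests, but this share cannot be set against the 12. The members varied together, so the tests were not independent, and most of the 12 came from YBJCNT replicate 4 and OBJCNT replicate 1. YBJCNT replicate 4 was far above the other 6 young controls for Fos (154.2 CPM against 19.96 to 65.39), Fosb (51.47 CPM against 5.82 to 24.48), Junb (58.41 CPM against 17.18 to 34.55) and Ier2 (51.29 CPM against 19.04 to 30.99). OBJCNT replicate 1, the BoyJ library of the old unjoined controls, was far below the 3 B6 ones for Fos (21.34 CPM against 618.5 to 736), Jun (120.9 CPM against 844.9 to 932.2), Ier2 (15.83 CPM against 138.9 to 155.5) and Dusp1 (44.25 CPM against 292.8 to 317.5). For Ier3 the same library was far above them (51.21 CPM against 36.02 to 37.81).

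Atf3 was far higher in YISOBJ replicate 2 (1.332 CPM) than in the other YISO libraries (0 to 0.114), and in OISOB6 replicate 3 (7.141 CPM) than in the other OISO libraries (0 to 0.271). Ier3 was far lower in OHETB6 replicate 1 (14.04 CPM) than in the other OHET libraries (30.32 to 33.17).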

How the results depend on the processing

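The labels were the first limit: with the 19 libraries on which title and description meet, 2 members were called in OCNT minus YCNT, and with columns matched by description also 2, against 5. Over all genes these settings called 179 of 15675 and 86 of 16841 higher. In that comparison DESeq2 called 9 and limma-voom 10. The fit without a strain term called 9, where 269 of 16068 genes rose. The fit of only the conditions compared called 2 of the 9 members it tested, where 310 of 14403 genes rose. Without the 3 OB6CNT libraries OCNT is 1 library. The log2 fold changes then turned to -1.80 for Fosb, -0.25 for Jun, -0.90 for Ier2 and -0.93 for Dusp1. The medians of the members also changed sign without them in OISO minus OCNT (1.36), OHET minus OCNT (1.34) and the age by joining difference (-1.56), and with columns matched by description in OHETX minus OHET (-0.72). Leaving out 1 library at a time gave 2 to 9 calls, with 9 without OBJCNT replicate 1 and 2 or 3 without any 1 of YB6CNT replicates 1 to 3, YBJCNT replicates 2 and 3, and OB6CNT replicates 1 to 3.

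In OISO minus YISO DESeq2 called 1 member. In OISO minus OCNT DESeq2 called 2, limma-voom 9 and the B6 libraries alone 2, where the B6 libraries had 10 of 15721 genes called lower. Leaving out 1 library gave 0 to 5, the 5 without OBJCNT replicate 1. In OHET minus OCNT DESeq2 called 2. The fit of only the conditions compared called 6 of the 9 members it tested, where 15 of 13853 genes fell. The B6 libraries alone gave 2 calls, where 11 of 15721 genes fell. Leaving out 1 library gave 0 to 3, the 3 without OBJCNT replicate 1. In OHETX minus OHET leaving out 1 library gave 0 to 1. In OB6CNT minus YB6CNT it gave 4 to 5 calls against 7, the 4 without YB6CNT replicate 3. In OB6CNT minus OISOB6 DESeq2 called 5, limma-voom 9 and the fit of only the groups compared 1, against 2. Over all genes DESeq2 called 18 of 11940 higher there, limma-voom 66 of 16841 and the fit of only the groups compared 13 of 14434. Leaving out 1 library there gave 1 to 4, with 4 without OISOB6 replicate 1 or 3 and 1 without OISOB6 replicate 4 or OB6CNT replicate 1 or 3. In the difference between strains, which rests on 1 OBJCNT library, the median of the members was 3.73 with DESeq2 and 3.59 with limma-voom, against 3.71. Beyond the settings that remove samples, the cause was not tested.

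Among the 14 single gene values and their 226 alternatives, 168 kept direction and side of the threshold, 54 kept direction and lost the call, and 4 reversed, as given above. No paired analysis was possible because the replicate numbers were given in accession order and pair nothing. Depth limits Atf3 in particular, with 0 to 6 counts per young unjoined library.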

Other observations

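Lists of other genes were read in the same fits. Among 10 stem cell markers, 2 rose in OCNT minus YCNT in edgeR, where 1.59% of 16068 genes did. Slamf1 (CD150) rose by 1.36 on the log2 scale (edgeR adjusted p = 0.000724), and Procr (EPCR) by 0.99 (edgeR adjusted p = 0.0124). Slamf1 was at 129 ± 12.5 CPM (SD, n = 3) in OB6CNT and 46.5 ± 12.8 CPM (SD, n = 3) in YB6CNT. The OBJCNT library was at 131 CPM for Slamf1 and 153 CPM for Procr, with the OB6CNT libraries, unlike its values for Fos and Jun.

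Of 4 tested endothelial markers 2 rose in the same comparison, where 1.59% of all genes did. Cldn5, a tight junction gene, was at 15.0 ± 5.85 CPM (SD, n = 3) in OB6CNT, 0.791 ± 0.206 CPM (SD, n = 3) in YB6CNT and 10.9 CPM in OBJCNT (edgeR adjusted p = 5.54e-05). Kdr, a VEGF receptor, was at 36.7 ± 12.0 CPM and 5.30 ± 1.80 CPM in the same groups and 10.1 CPM in OBJCNT (edgeR adjusted p = 0.0195).

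Of 10 heat shock chaperones edgeR called 0 in OCNT minus YCNT (1 at an unadjusted p under 0.05, 0 in DESeq2, 1 in limma-voom), with 7 negative values and a median of -0.12. Hspa8 was at 2100 ± 357 CPM in OB6CNT and 2338 ± 776 CPM in YB6CNT (SD, n = 3 each). Of 6 genes of the integrated stress response edgeR, DESeq2 and limma-voom called 0, with 0 at an unadjusted p under 0.05, 6 positive values and a median of 0.46.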
